A study of Mus musculus with 2 samples.

Results

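The genes described here encode the enzymes that modify drugs, steroids, lipids and other small molecules in the intestinal epithelium: cytochromes P450 (Cyp), UDP-glucuronosyltransferases (Ugt), sulfotransferases (Sult), glutathione S-transferases (Gst), flavin-containing monooxygenases (Fmo) and carboxylesterases (Ces). Members were the rows of the deposited count table whose mouse symbol starts with one of these family names and that held at least 20 transcript counts over all cells, without Cyp51 and without a pseudogene row. There were 80 members among 15745 genes in the table: 33 Cyp, 8 Ugt, 5 Sult, 21 Gst, 3 Fmo and 10 Ces genes. The annotation holds 192 protein-coding genes of these families, of which 114 had a row and 34 of those fell below the minimum. The minimum uses the measured counts, so it selects genes that are detected in at least 1 of the libraries. The lowest member was Ces1b, a carboxylesterase, with 20 counts, and the highest gene below the minimum was Cyp2r1, a vitamin D hydroxylase, with 19.

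Oxidation by Cyp and Fmo enzymes and hydrolysis by Ces enzymes expose or add a polar group, and Ugt, Sult and Gst enzymes then join glucuronic acid, sulfate or glutathione to the molecule, which aids its export. In the intestine these enzymes are best known from the absorptive enterocytes of the villus, which meet food and drugs first. Several of the same families also act on the body's own compounds: Cyp enzymes hydroxylate fatty acids, steroids and retinoids, and Gst enzymes clear aldehydes left by lipid oxidation.

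The cells came from intestinal organoids, cultured epithelial structures with crypt and villus cell types, of wild-type C57BL/6 mice aged 10 weeks. All organoids were kept with EGF at 100 ng/ml, Noggin at 100 ng/ml and R-spondin at 500 ng/ml. Y-27632, which blocks the kinase ROCK, was present at 10 µM until day 3 together with 20% medium conditioned by Wnt3a-secreting cells. CHIR99021, an inhibitor of GSK3 that activates Wnt signalling, was present at 3 µM until day 1. None of the 3 was given from day 3 to day 5. Transcripts of single cells were counted from their 3-prime ends in droplets by unique molecular identifiers (UMIs), with 1 library at day 3 and 1 at day 5. Day, medium and depth therefore differ together and cannot be told apart, there is 1 library per group, and no test between days or classes was possible. How many animals or cultures each library holds is not stated.

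At day 3, 798 cells gave 28764033 UMIs, and at day 5, 1065 cells gave 17349076, with medians of 32063.5 and 13549 UMIs per cell. Levels are UMIs per 1000000 UMIs (CPM) of summed cells with exact Poisson 95% intervals, which cover counting error only. A gene is called higher or lower in one sum than in the other where the ratio is at least 1.5-fold and the intervals do not overlap. Each library was clustered on its own without the enzyme genes, and clusters were named from marker genes of intestinal cell types. Crypt-like cells (stem-like or proliferating) numbered 385 at day 3 and 366 at day 5, absorptive-like cells 79 and 401, and secretory-like cells 45 and 39. Regenerative-like cells, marked by genes of injured or fetal-like epithelium such as Clu and Anxa1, numbered 105 at day 3, and no day 5 cluster had that name. With other clustering settings, a day 5 cluster of 19, 20 or 32 cells received it. The other 184 and 259 cells stayed unnamed. Stromal and endothelial markers summed to at most 1.73 CPM in any class, and immune markers to at most 41.5 CPM, in the regenerative-like cells. Only 2 of 8 stromal and endothelial markers and 4 of 9 immune markers had a row in the deposited table.

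Over all cells, the enzyme genes took 3145 CPM (3124.7–3165.7) of the day 3 library and 7464 CPM (7423–7505) of the day 5 library, a ratio of 2.37-fold. Of the 80 members, 61 were called higher in the day 5 library, 3 lower and 16 neither. Among all 11961 genes with at least 20 UMIs, 12.7% were called higher and 33.3% lower. The median log2 ratio of day 5 over day 3 was 1.95 over the members and -0.34 over those 11961 genes. The median over the members was also 1.95 with the 2 members that had no day 3 UMI set to their ratio over a floor of 3 UMIs. TMM scaling adds 0.31 to every log2 ratio of this comparison. Absorptive-like cells made up 9.90% of the day 3 cells and 37.7% of the day 5 cells, and in sums over all cells more cells of a type and more RNA per cell cannot be told apart. Without the absorptive-like cells of both libraries, 53 members were called higher, beside 10.4% of the 11961 genes. The unnamed cells that remained in those sums held 1188 CPM of enterocyte markers at day 3 and 15768 CPM at day 5. Of the 61 members called higher over all cells, 14 had fewer than 20 day 3 UMIs. These 14 passed the minimum only with their day 5 UMIs, and nothing is read from their direction. They were Ces1g, Ces2b, Ces2c, Cyp26b1, Cyp2c23, Cyp2c37, Cyp2c38, Cyp2c70, Cyp2d10, Cyp2d22, Cyp4a10, Fmo1, Fmo4 and Ugt1a1. The family and subfamily counts below include them, and stand against the 12.7% higher and 33.3% lower of all 11961 genes.

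The families differed widely in the size of the day 5 excess. The 33 Cyp genes summed to 320.5 CPM at day 3 and 2141 CPM at day 5, a 6.68-fold difference, with 28 genes called higher and 1 lower. The 3 Fmo genes went from 14.8 to 238 CPM, a 16.0-fold difference, and all 3 were called higher, of which Fmo1 and Fmo4 passed the minimum only with their day 5 UMIs. The 5 Sult genes were also all called higher, with sums of 68.5 and 469 CPM. Among the 10 Ces genes, 9 were called higher and the sums were 408 and 1583 CPM. Among the 8 Ugt genes, 6 were called higher and the sums were 128 and 397 CPM. The Gst family had the largest sum at both days and the smallest ratio, 2205 CPM at day 3 against 2635 CPM at day 5 or 1.20-fold, with 10 of 21 genes called higher and 2 lower. Gst genes thus supplied most of the enzyme UMIs at day 3, and their sum was above the Cyp sum at both days.

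**Figure D1:**
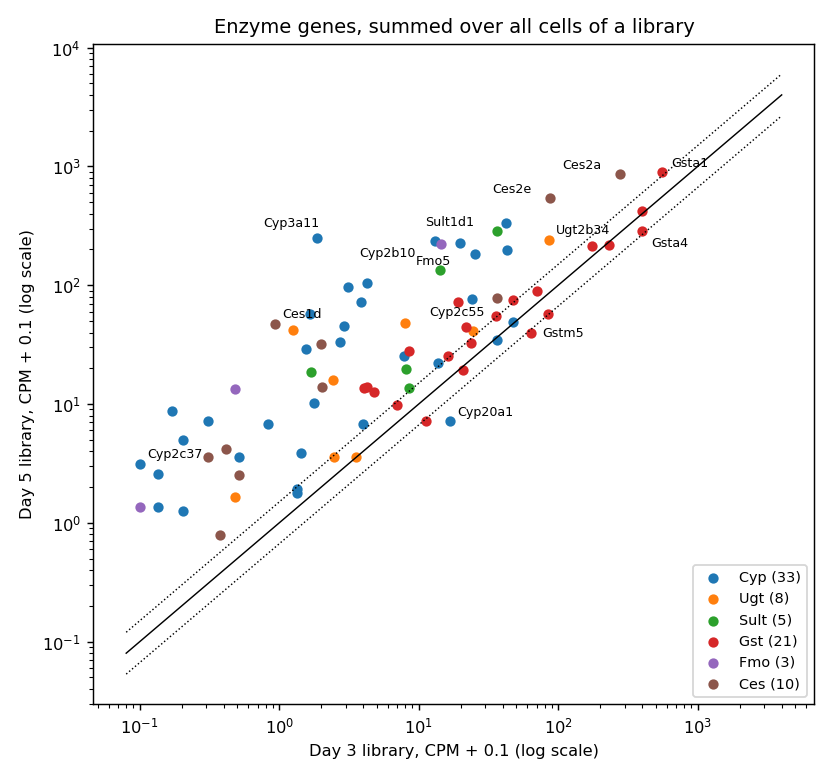
Level of each of the 80 enzyme genes in the day 3 library (x axis) and the day 5 library (y axis), in CPM plus 0.1 on log scales; colours are families, the solid line marks equal levels and the dotted lines 1.5-fold. Most Cyp, Sult, Fmo and Ces genes lie above the upper dotted line, many Gst genes lie between the dotted lines, and Cyp20a1 lies lowest relative to them, at 16.7 and 7.09 CPM.

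Among the P450 genes, the most abundant at day 5 belonged to the Cyp2 and Cyp3 subfamilies. Cyp2j6, a fatty acid epoxygenase, stood at 42.3 CPM (39.9–44.7) at day 3 and 332 CPM (323–341) at day 5, a log2 ratio of 2.97. Cyp3a11 (ENSMUSG00000056035; GRCm38 chr5:145854426-145879964, minus strand), the main drug-oxidising Cyp3a enzyme of mouse liver and gut, stood at 1.77 CPM (1.32–2.33) at day 3 and 249 CPM (242–256) at day 5, a log2 ratio of 7.12. Its 51 day 3 UMIs lay in 11 cells, with 49.02% of them in a single cell, while its 4318 day 5 UMIs lay in 576 cells. The day 3 level of Cyp3a11 therefore rests on very few cells.

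Cyp2b10, a P450 known as a target of the xenobiotic receptor CAR, stood at 13.0 and 236 CPM, a log2 ratio of 4.18, and its 373 day 3 UMIs lay in 91 cells. Cyp4f14, which hydroxylates leukotrienes, stood at 19.6 and 228 CPM, a log2 ratio of 3.54. Cyp4v3, a fatty acid hydroxylase, stood at 4.17 and 104 CPM, a log2 ratio of 4.63. All 7 Cyp4 genes were called higher, with sums of 49.1 and 417 CPM. Of these, Cyp4a10 passed the minimum only with its day 5 UMIs. Cyp2d26, a member of the Cyp2d drug-oxidising group, stood at 2.99 and 95.7 CPM, a log2 ratio of 4.99, and Cyp2u1, a fatty acid hydroxylase, at 1.46 and 28.9 CPM, a log2 ratio of 4.29. Cyp3a25 and Cyp3a13, the other Cyp3a members, stood at 2.82 and 45.7 CPM and at 24.0 and 76.1 CPM, with log2 ratios of 4.01 and 1.67. Cyp3a13 was not called without the absorptive-like cells (log2 ratio 0.55) or with the day 5 cells held to the lowest day 3 UMI total (0.33). The 3-prime ends of Cyp3a25 and Cyp3a59 are 95.2% identical over 500 bases, and those of Cyp2d26 and Cyp2d10 95.4% over 239. The split of their UMIs is therefore uncertain.

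Genes of the Cyp2c group on chromosome 19 sit side by side and did not share a size of difference. Some have like 3-prime ends, so the split of their UMIs is uncertain. Cyp2c37 is 95.8% identical to Cyp2c50 over 497 bases, Cyp2c65 97.3% to Cyp2c66 over 186 and Cyp2c68 98.6% to Cyp2c40 over 500. Cyp2c55, an arachidonic acid hydroxylase, stood at 47.1 CPM (44.7–49.7) at day 3 and 49.4 CPM (46.1–52.8) at day 5, and the intervals overlap. Cyp2c65 and Cyp2c66, its neighbours, stood at 42.9 and 199 CPM and at 25.1 and 184 CPM, with log2 ratios of 2.21 and 2.87. Cyp2c29, a P450 known from liver, stood at 1.56 and 57.2 CPM, a log2 ratio of 5.18. Cyp2c37 had 0 day 3 UMIs and 53 day 5 UMIs, or 3.05 CPM, which is at least 29.3-fold higher with the floor set at 3 UMIs in the day 3 library. Cyp2c38 had 2 and 151 UMIs, a log2 ratio of 6.65 with a counting interval from 5.09 to 10.03. The 8 members of this group lie within chr19:39007019-40187333 (GRCm38), and 7 of them were called higher, with log2 ratios from 0.07 to 7.47. The highest of these is the fitted value of Cyp2c37 and is no bound. Cyp2c37, Cyp2c38 and Cyp2c70, among the 7 called higher, passed the minimum only with their day 5 UMIs.

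Cyp20a1 (chr1:60343323-60388060, plus strand), a P450 without an established substrate, was the 1 Cyp member called lower at day 5, at 16.7 CPM (15.2–18.2) against 7.09 CPM (5.89–8.46), a log2 ratio of -1.23. Cyp2s1, a P450 of epithelial tissues, stood at 36.3 and 34.8 CPM, a log2 ratio of -0.06 that turned to 0.25 with TMM scaling. Cyp27a1, a mitochondrial sterol hydroxylase, was not called, at 1.25 and 1.84 CPM. Cyp39a1, an oxysterol hydroxylase, was called higher, at 3.89 and 6.74 CPM. Cyp26b1, which breaks down retinoic acid, had 3 day 3 UMIs and stood at 0.104 and 1.15 CPM.

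Among the conjugating enzymes, Sult and Ugt2 genes were higher at day 5 as whole groups. Sult1d1 and Sult1b1, which add sulfate to phenols such as catecholamines and thyroid hormones, stood at 36.4 and 283 CPM and at 14.1 and 134 CPM, with log2 ratios of 2.96 and 3.25. Sult2b1, a sterol sulfotransferase, stood at 7.96 and 19.5 CPM, a log2 ratio of 1.29. Sult1c2 had the lowest log2 ratio of the family, 0.68, at 8.38 and 13.4 CPM. Ugt2b34, the most abundant glucuronosyltransferase, stood at 85.9 and 242 CPM, a log2 ratio of 1.495. Ugt2b5 stood at 1.15 and 41.6 CPM, a log2 ratio of 5.16, and all 5 Ugt2 genes were called higher. Of the 3 Ugt1a members, Ugt1a6a at 2.36 and 3.52 CPM and Ugt1a7c at 3.44 and 3.52 CPM were not called. The Ugt1a genes share their last exons, so 3-prime reads cannot be split between them with certainty.

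Calls among the Gst genes were mixed within subfamilies, with 2 of 4 alpha-class (Gsta), 2 of 7 mu-class (Gstm) and 2 of 3 pi-class (Gstp) genes called higher. Gsta1 (ENSMUSG00000074183; chr9:78230656-78242684, plus strand), an alpha-class transferase, was the most abundant of the 80 members at both days, at 557 CPM (548–565) and 896 CPM (882–910), a log2 ratio of 0.69. Its ratio turned to -0.83 without the absorptive-like cells and to -0.87 with the day 5 cells held to the day 3 minimum. Gsta4 (chr9:78182774-78209349, plus strand), which conjugates aldehydes from lipid oxidation, stood at 399 CPM (392–407) and 287 CPM (279–295), a log2 ratio of -0.48 that is short of the 1.5-fold limit. Gsta3 likewise stood at 84.2 and 57.6 CPM, a log2 ratio of -0.55. Without the absorptive-like cells, both were called lower, at -0.84 and -1.11.

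Gsto1, an omega-class enzyme that reduces dehydroascorbate, differed little at 401 and 424 CPM, and was detected in all 798 day 3 cells and in 1053 day 5 cells. Gstp1, the pi-class enzyme, stood at 174 and 213 CPM. In the mu class, Gstm1 stood at 232 and 219.8 CPM and Gstm2 at 20.7 and 19.1 CPM, log2 ratios of -0.08 and -0.11 that both turned positive with TMM scaling. Gstm6, at 8.48 and 28.1 CPM, and Gstm7, at 4.69 and 12.5 CPM, were called higher, with log2 ratios of 1.72 and 1.41. Gstm5 stood at 64.2 and 39.6 CPM and was called lower, as was Gstcd, a protein with a transferase-like domain, at 11.2 and 7.09 CPM. Their log2 ratios were -0.70 and -0.65, and neither was called with TMM scaling (-0.38 and -0.34). Gstt1, a theta-class enzyme, stood at 19.2 and 72.0 CPM, a log2 ratio of 1.91, and Gstk1, the kappa-class enzyme of mitochondria and peroxisomes, at 4.14 and 13.8 CPM, a log2 ratio of 1.73. Gsta1, Gsta2, Gm3776 and Gm10639 have closely alike 3-prime ends, as do Gstp1 and Gstp2, so the split of their UMIs is uncertain. Gsta1 is 99.8% identical to Gm3776 over 499 bases and 95% to Gm10639 over 500.

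Both classes of carboxylesterase were higher at day 5. Ces2a (ENSMUSG00000055730; chr8:104734003-104741634, plus strand), an intestinal ester hydrolase, stood at 279 CPM (273–286) at day 3 and 860.2 CPM (846–874) at day 5, a log2 ratio of 1.62. Ces2e, its neighbour, stood at 87.0 and 541 CPM, a log2 ratio of 2.64. Ces1d, a lipid-hydrolysing carboxylesterase, stood at 0.834 and 47.3 CPM, a log2 ratio of 5.80. The 5 Ces2 genes within chr8:104734003-104969537 were all called higher, with log2 ratios from 1.11 to 3.95, as were 4 of the 5 Ces1 genes within chr8:93056728-93337308. The 1 Ces1 gene not called was Ces1b, the lowest member by counts. Among the genes called, Ces2b, Ces2c and Ces1g passed the minimum only with their day 5 UMIs. Ces2 genes held nearly all of the family's UMIs, 403 of 408 CPM at day 3.

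Fmo5, the main flavin-containing monooxygenase of gut and liver (chr3:97628804-97655282, plus strand), stood at 14.5 CPM (13.1–15.9) at day 3 and 224 CPM (217–231) at day 5, a log2 ratio of 3.95. Fmo4 stood at 0.382 and 13.3 CPM, a log2 ratio of 5.06. Fmo1 had 0 day 3 UMIs and 22 day 5 UMIs, or 1.27 CPM, at least 12.2-fold higher with the floor set at 3 day 3 UMIs. Fmo5 supplied most of the family's UMIs at both days.

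Promoter sequences are shown because neighbouring Cyp2c genes differed in level between the libraries and classes. RefSeq (GRCm38.p6) held promoter windows, from 250 bases before to 50 bases after the start of transcription, for 68 of the 80 members, in 84 windows. The letters CAAAGTCCA, a binding motif of the enterocyte and liver regulator HNF4A, were found on either strand in 5 of 84 member windows (5.95%), those of Cyp2c65, Cyp2c68, Cyp2c70, Cyp3a11 and Sult1b1. Over all 32851 promoter windows the share was 0.475%. TATAA, the TATA box, was found in 40.5% of member windows and 24.9% of all, and GATAA, the GATA factor motif, in 41.7% and 25.4%. TTTATG, a CDX2 motif, was found in 11.9% of both, and in 5 of 8 Ces windows. TGACNNNGC, the antioxidant response element, was found in 8.33% and 12.4%, and GCGTG, the core of the AHR element, in 22.6% and 32.4%. Direct repeats of the nuclear receptor half-site in a pair of spacings were found in no member window and in at most 0.0396% of all. Related genes share ancestry, so these windows are not independent, and a match is a run of letters and not a shown binding site.

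The 120 bases upstream of the RefSeq start of Cyp3a11 and of 4 Cyp2c genes are shown 5′ to 3′ on the strand of the gene. Capitals mark the HNF4A, TATA box and GATA letters given above or their reverse complements. The capital run of Cyp2c65 nearest the start, and that of Cyp2c55, hold the TATA box letters on both strands in overlap. The stretches are Cyp3a11 chr5:145879855-145879974 (minus strand), Cyp2c65 chr19:39060886-39061005 (plus), Cyp2c68 chr19:39741102-39741221 (minus), Cyp2c70 chr19:40187287-40187406 (minus) and Cyp2c55 chr19:39006899-39007018 (plus).
Cyp3a11: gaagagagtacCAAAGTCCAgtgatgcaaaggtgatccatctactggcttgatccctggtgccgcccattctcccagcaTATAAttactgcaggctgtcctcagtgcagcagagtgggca
Cyp2c65: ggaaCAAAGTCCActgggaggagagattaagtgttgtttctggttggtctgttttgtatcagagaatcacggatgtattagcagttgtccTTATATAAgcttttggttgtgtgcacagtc
Cyp2c68: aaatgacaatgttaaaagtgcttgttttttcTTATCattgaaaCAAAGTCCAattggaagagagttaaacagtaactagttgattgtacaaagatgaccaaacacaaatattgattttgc
Cyp2c70: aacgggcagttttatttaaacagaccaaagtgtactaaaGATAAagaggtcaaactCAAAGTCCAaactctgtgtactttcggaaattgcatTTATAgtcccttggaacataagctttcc
Cyp2c55: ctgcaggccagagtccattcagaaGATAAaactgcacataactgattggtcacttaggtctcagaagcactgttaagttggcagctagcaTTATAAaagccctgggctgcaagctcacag
The Cyp3a11, Cyp2c65, Cyp2c68 and Cyp2c70 stretches hold CAAAGTCCA, and the Cyp2c55 stretch holds TATAA and GATAA without it. The windows of Cyp2c29, Cyp2c38 and Cyp2c66, not shown, also lack CAAAGTCCA. Their log2 ratios of day 5 over day 3 were 5.18, 6.65 and 2.87. The Cyp2c37 window lacks it too, with 0 day 3 and 53 day 5 UMIs. Cyp2c37, Cyp2c38 and Cyp2c70 passed the minimum only with their day 5 UMIs, and nothing is read from their direction. Of the others, Cyp3a11, Cyp2c65 and Cyp2c68 with these letters, and Cyp2c29 and Cyp2c66 without them, were higher at day 5. Levels over all cells at day 3 and day 5 were 1.77 and 249 CPM for Cyp3a11, 42.9 and 199 CPM for Cyp2c65, 3.75 and 72.1 CPM for Cyp2c68, 0.417 and 3.52 CPM for Cyp2c70 and 47.1 and 49.4 CPM for Cyp2c55. By cell class, Cyp3a11, Cyp2c65, Cyp2c68 and Cyp2c55 were higher in absorptive-like than in crypt-like day 5 cells. Cyp2c70 passed the minimum of that comparison only with its crypt-like UMIs, and nothing is read from its direction. The motif search does not bear on which factor acts on these genes.

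In the absorptive-like cells of day 5 the members were mostly higher than in the crypt-like cells of the same library. Of 74 members with at least 20 UMIs over both classes, 58 were called higher in absorptive-like cells and 8 lower, against 20.8% and 31.7% of 10366 genes. The 58 include members, such as Cyp2c29, that passed this minimum only with their absorptive-like UMIs, and nothing is read from their direction. Summed over the 80 members, crypt-like cells held 3409 CPM and absorptive-like cells 15306 CPM. Cyp genes summed to 458 and 5568 CPM, Fmo genes to 43.8 and 599.8 CPM, and Ugt genes to 131 and 896 CPM. Gst genes summed to 1433 and 5092 CPM, Sult genes to 242 and 830.3 CPM, and Ces genes to 1099.7 and 2320 CPM. Gst genes were the largest family in crypt-like cells. Which of Cyp and Gst was larger in absorptive-like cells differed between the 2 clusters of that class, at 4228 against 4507 CPM in the larger and 7555 against 5960 CPM in the smaller cluster. Enterocyte markers, from which the class was named, summed to 3148 and 47517 CPM in the same cells.

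**Figure D2:**
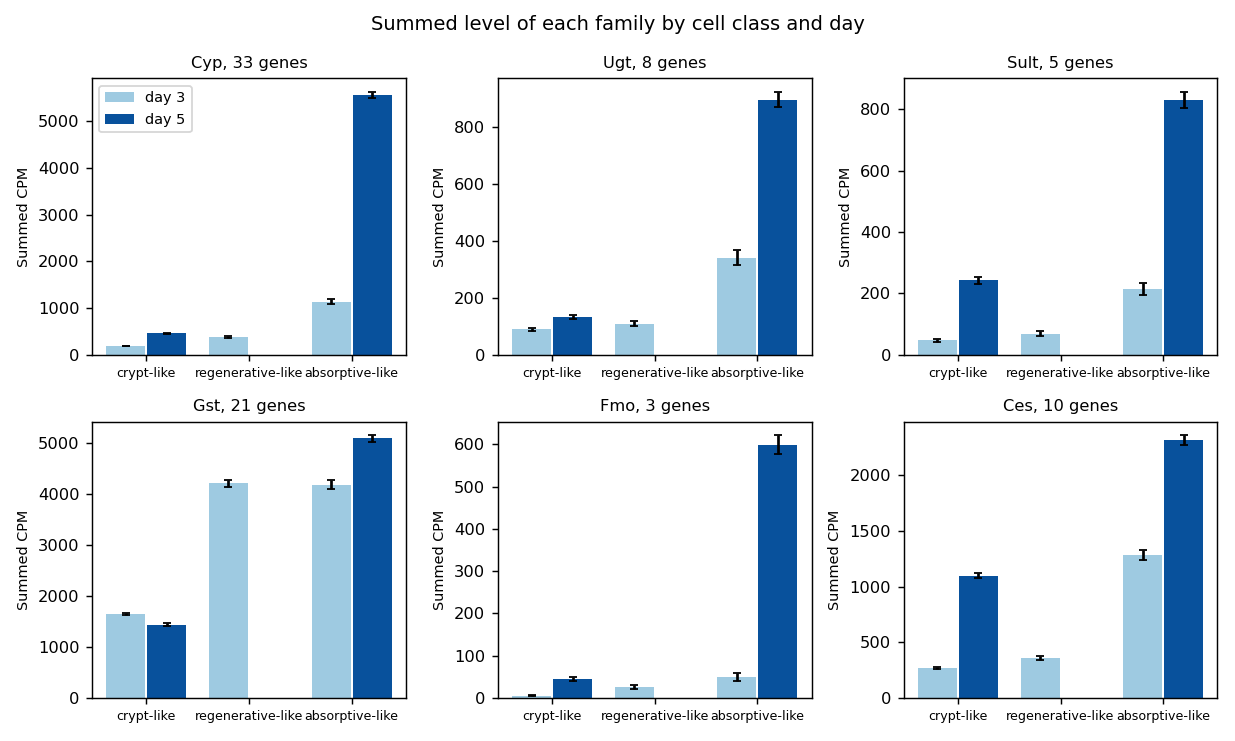
Summed CPM of each enzyme family (y axis, linear from 0, a separate scale per panel) in crypt-like, regenerative-like and absorptive-like cells; light bars are day 3, dark bars day 5, and error bars exact Poisson 95% intervals. Absorptive-like day 5 bars are highest in every panel, and among day 3 bars the Gst panel alone has regenerative-like cells level with absorptive-like cells, at 4204 and 4179 CPM.

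Between these day 5 classes, Cyp2c29 stood at 1.52 CPM (0.785–2.65) in crypt-like and 194 CPM (181–207) in absorptive-like cells, a log2 ratio of 6.94. Because Cyp2c29 passed the minimum only with its absorptive-like UMIs, nothing is read from its direction. Cyp3a11 stood at 7.85 CPM (6.02–10.1) and 855 CPM (828–882), a log2 ratio of 6.76, and the absorptive-like cells held 89.4% of its day 5 UMIs. Gsta1 stood at 59.5 CPM (54.3–65.1) and 2637 CPM, and absorptive-like cells held 76.6% of its UMIs. Cyp2b10 stood at 18.4 and 699 CPM, and Fmo5 at 40.01 and 569 CPM. Most day 5 UMIs of Cyp3a11, Gsta1, Cyp2b10 and Fmo5 thus lay in absorptive-like cells, with 77.2% for Cyp2b10 and 66.2% for Fmo5. Unnamed cells held 7.18%, 19.3%, 17.2% and 23.8% of the UMIs of these genes, in that order.

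Ces2a did not follow them. It stood at 742 CPM (723–761) in crypt-like and 937 CPM (909–966) in absorptive-like cells, a log2 ratio of 0.34 that is not called, and crypt-like cells held 39.3% of its day 5 UMIs. Gsto1, at 401 and 491 CPM, Gstp1 and Gstz1, an enzyme of tyrosine breakdown, were not called either. The 8 members called lower in absorptive-like cells were Cyp2c70, Cyp20a1, Gstcd, Cyp39a1, Gstt2, Gstm5, Sult1c2 and Gstm2, with log2 ratios from -2.43 to -0.60. Of these, Cyp2c70, Cyp20a1, Gstcd and Cyp39a1 passed the minimum only with their crypt-like UMIs, and nothing is read from their direction. Cyp2c70, a bile acid hydroxylase in mouse liver, stood at 5.32 CPM (3.83–7.19) in crypt-like and 0.886 CPM (0.241–2.27) in absorptive-like cells. Gstt2, a theta-class transferase, stood at 100.8 CPM (93.9–108) and 39.9 CPM (34.3–46.1).

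**Figure D3:**
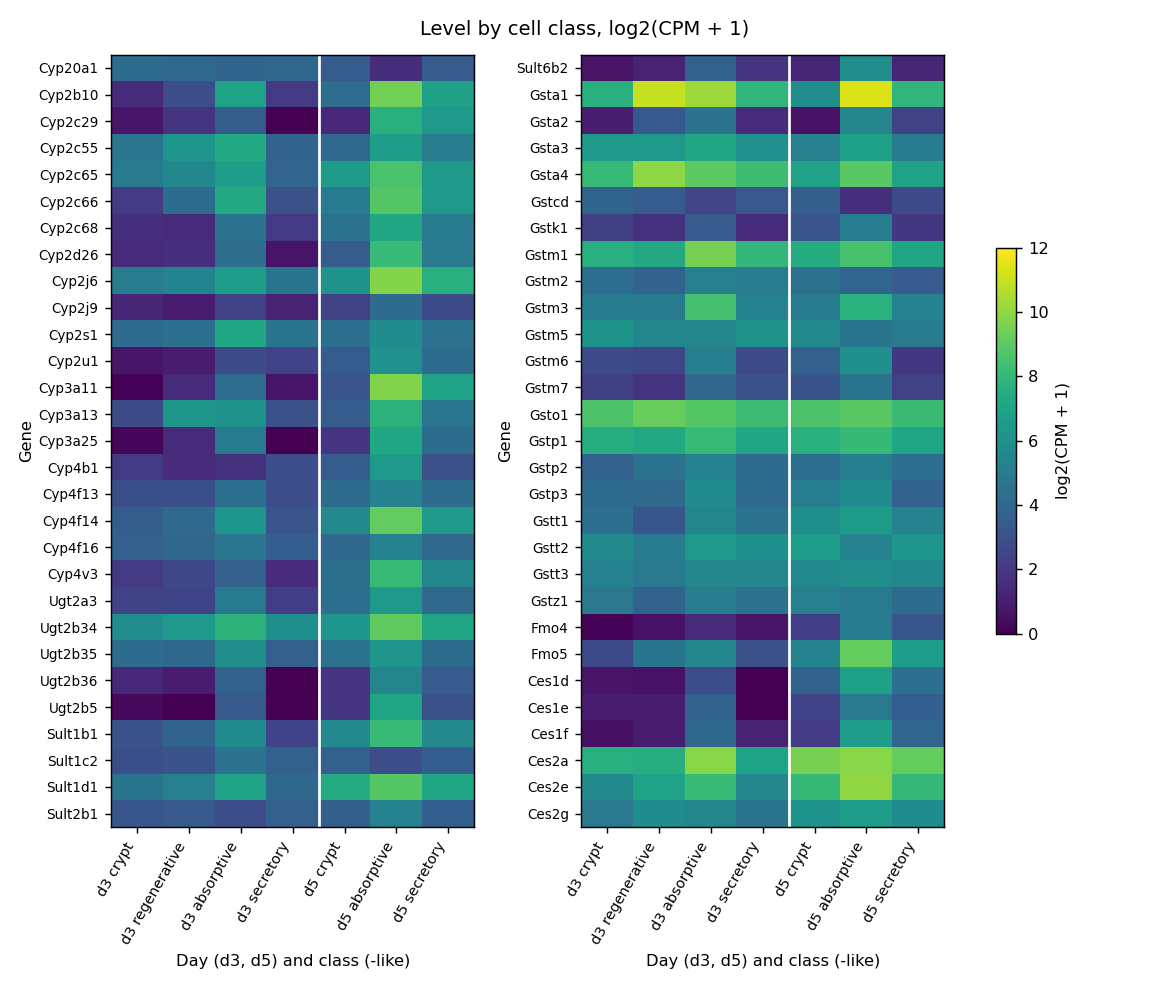
Level of 58 members with at least 10 CPM in 1 of the libraries (rows) in crypt-like, regenerative-like, absorptive-like and secretory-like cells of day 3 (d3) and day 5 (d5), as log2 of CPM plus 1, from dark (low) to yellow (high). Gsta1 is bright in regenerative-like cells (1995 CPM) and in absorptive-like cells of both days (1194 and 2637 CPM), whereas Ces2a is bright in crypt-like cells of day 5 (742 CPM).

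The 79 absorptive-like cells of day 3 held the same families at lower levels. Of 61 members with at least 20 UMIs, 50 were called higher than in day 3 crypt-like cells and 2 lower, Gstcd and Gstm5 (log2 ratios of -1.48 and -0.66), against 10.6% and 19.5% of 10564 genes. The 50 include members, such as Cyp3a11 and Cyp3a25, that passed this minimum only with their absorptive-like UMIs. Gstcd passed it only with its crypt-like UMIs, and nothing is read from the direction of any of these. Sums over the 80 members were 2236 CPM in crypt-like and 7201 CPM in absorptive-like cells, with medians over single cells of 2095 and 6033 CPM. Enterocyte markers summed to 763 and 5375 CPM. Cyp2c66 stood at 3.46 CPM (2.55–4.58) and 158 CPM (142–176), and Cyp2c55 at 24.8 and 158 CPM. Cyp3a25 had 2 crypt-like UMIs and 63 absorptive-like UMIs, a log2 ratio of 7.36 with a counting interval from 5.76 to 10.75.

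A few single cells carried some of these day 3 levels. Cyp3a11 had 1 crypt-like UMI and 40 absorptive-like UMIs, a log2 ratio of 7.45 with a counting interval from 5.46 to 13.36, and 62.5% of the 40 lay in 1 cell. Cyp2b10 stood at 1.73 and 122 CPM, and 34.4% of its absorptive-like UMIs lay in 1 cell. Counting intervals do not cover such clumping. In contrast, no single cell held more than 1.33% of the Cyp3a11, Cyp2b10 or Gsta1 UMIs of the day 5 absorptive-like cells.

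Regenerative-like cells of day 3 had a higher summed enzyme level than crypt-like cells, most of it from Gsta1 and Gsta4. Of 55 members with at least 20 UMIs, 17 were called higher and 4 lower, against 21.3% and 7.05% of 10885 genes. The median log2 ratio was 0.16 over the 55 members and 0.15 over those genes. Both counts depend on the clustering, with 9 higher and 11 lower under a finer one, and nothing about the members as a set is read from them. The genes called higher were 8 Cyp, 4 Gst, 2 Sult, 2 Ces and 1 Fmo gene. The sum over the 80 members was 5137 CPM, with 4204 CPM from Gst genes, against 2236 and 1647 CPM in crypt-like cells. The medians over single cells differed less, at 2505 against 2095 CPM for all members and 1987 against 1531 CPM for Gst genes. Both class comparisons of day 3 use the same crypt-like cells.

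Gsta1 stood at 198 CPM (191–205) in crypt-like, 1995 CPM in regenerative-like and 1194 CPM in absorptive-like cells of day 3, and regenerative-like cells, 13.2% of the library, held 52.0% of its UMIs. Gsta4 stood at 283 CPM (274–292), 994 CPM and 506 CPM (476–537) in the same order. Cyp3a13 stood at 5.98 CPM (4.76–7.41), 81.5 CPM (73.0–90.6) and 70.9 CPM (60.04–83.1), and 32.6% of its regenerative-like UMIs lay in 1 cell. Fmo5 stood at 5.40, 24.2 and 46.6 CPM. Over all day 3 cells, 10 cells held 29.9% of the Gsta1 UMIs and 1 cell held 7.98%. For the 4 Gsta genes together, the median over single cells was 432 CPM in crypt-like and 1124 CPM in regenerative-like cells. Their summed levels were 568 and 3083 CPM. The log2 ratios of regenerative-like over crypt-like cells were 3.33 for Gsta1, 1.81 for Gsta4, 3.76 for Cyp3a13 and 2.16 for Fmo5. Gsta2, at 1.01 and 8.87 CPM, Cyp27a1, at 0.720 and 3.83 CPM, and Cyp2c66, at 3.46 and 18.0 CPM, had log2 ratios of 3.11, 2.39 and 2.37. Gsta2 passed the minimum only with its regenerative-like UMIs, and Cyp27a1 only with both sums together. Nothing is read from the direction of Gsta2 or Cyp27a1.

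The other members called higher were Cyp2c29, Cyp2b10, Cyp2c55, Cyp2c65, Cyp4f14, Sult1b1, Sult1d1, Gstp2, Ces2e and Ces2g, with log2 ratios from 0.65 to 2.01. Cyp2c29 reached the minimum only with both sums together, and nothing is read from its direction. Cyp2c55 stood at 24.8 CPM in crypt-like and 74.8 CPM in regenerative-like cells, and Ces2e at 48.7 and 118 CPM. Ces2a was not called. It stood at 188 CPM in crypt-like, 176 CPM in regenerative-like and 919 CPM in absorptive-like cells, and 0 of the 6 Ugt genes tested were called. The 4 members called lower were Gstt1, Gstz1, Gstm5 and Gstt2, with log2 ratios from -1.28 to -0.72. Regenerative markers summed to 2134 CPM in crypt-like, 12563 CPM in regenerative-like and 1996 CPM in absorptive-like cells, and enterocyte markers to 763, 904 and 5375 CPM.

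The 2 clusters that make up the regenerative-like class did not carry the enzymes alike. The cluster of 76 cells held 6051 CPM of all members and the cluster of 29 cells 2268 CPM. Gsta1 stood at 2457 and 545 CPM in these clusters, Gsta4 at 1135 and 553 CPM, Cyp3a13 at 104.6 and 8.93 CPM, and Fmo5 at 30.7 and 3.97 CPM. The smaller cluster was thus near the crypt-like level for Cyp3a13 and Fmo5 and above it for Gsta1 and Gsta4. With a coarser clustering 22 members were called higher, and with the enzyme genes kept in the clustering 11. Gsta1, Gsta4, Cyp3a13 and Fmo5 were called higher under each of these clusterings.

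Within the crypt-like class, 38 of 63 members were called higher at day 5 and 5 lower, against 8.78% and 19.9% of 10939 genes. The minimum of 20 UMIs applied to both sums together, so the 38 include members that passed it only with their day 5 UMIs. Cyp3a11 and Fmo4 are among them, and nothing is read from the direction of such members. The class is made up of 4 clusters at day 3 and 3 at day 5, from separate clusterings. Ces genes accounted for most of the difference in the summed level, at 267 CPM (259–276) at day 3 and 1099.7 CPM (1077–1123) at day 5. Ces2a alone stood at 188 and 742 CPM, Ces2e at 48.7 and 265 CPM, and Sult1d1 at 23.3 and 164 CPM. Fmo4 had 1 day 3 UMI and 28 day 5 UMIs, a log2 ratio of 5.06 with a counting interval from 3.03 to 10.98. Cyp3a11 had 1 and 62 UMIs, a log2 ratio of 6.20 with a counting interval from 4.24 to 12.10, and Ces1d stood at 0.576 and 12.9 CPM. Enterocyte markers summed to 763 CPM in day 3 and 3148 CPM in day 5 crypt-like cells, and their part in these differences was not tested.

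Alpha-class Gst genes went the other way in the crypt-like class. Gsta1 stood at 198 CPM (191–205) at day 3 and 59.5 CPM (54.3–65.1) at day 5, Gsta4 at 283 CPM (274–292) and 119 CPM (112–127), and Gsta3 at 85.9 CPM (81.1–90.9) and 37.0 CPM (32.9–41.5). Their log2 ratios were -1.73, -1.25 and -1.21. Cyp20a1 and Cyp2c55 were called lower too, at -0.79 and -0.63, the latter no longer with TMM scaling (-0.45). Regenerative markers summed to 2134 CPM in day 3 and 576 CPM in day 5 crypt-like cells, and their part in these differences was not tested. Stem-like and proliferating cells both showed a higher sum over the 80 members at day 5, 1962 against 3754 CPM and 2372 against 3222 CPM.

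Within the absorptive-like class, 45 of 72 members were called higher at day 5 and 9 lower, against 14.1% and 24.8% of 9104 genes. Cyp3a11 stood at 18.6 CPM (13.3–25.4) at day 3 and 855 CPM (828–882) at day 5, a log2 ratio of 5.50, and Fmo5 at 46.6 and 569 CPM. Cyp2b10 stood at 122 and 699 CPM, and Gsta1 at 1194 and 2637 CPM. Cyp2d34 and Cyp2c37 had 0 day 3 UMIs and, with a floor of 3 UMIs, were at least 14.6-fold and at least 7.13-fold higher at day 5. They are among the members of the 45 that passed the minimum only with their day 5 UMIs, and nothing is read from their direction. Ces2a, at 919 and 937 CPM, and Gsta4, at 506 and 482 CPM, had overlapping intervals.

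The 9 members called lower in day 5 absorptive-like cells were Cyp20a1, Sult1c2, Gstm2, Cyp2s1, Gstt2, Gstm1, Gstm5, Gstm3 and Cyp2c55, with log2 ratios from -2.71 to -0.60. At a Leiden resolution of 0.6, which clusters more coarsely, 5 members were called lower. Gstm1, a mu-class transferase, stood at 754 CPM (718–792) at day 3 and 367 CPM (349.96–386) at day 5, and Cyp20a1 at 13.5 CPM (9.05–19.4) and 1.99 CPM (0.911–3.78). Cyp20a1 passed the minimum in this class only with its day 3 UMIs, and nothing is read from its direction. Cyp2c55 stood at 158 CPM (142–176) and 104.5 CPM (95.3–114). Of the 7 mu-class genes, Gstm1, Gstm2, Gstm3 and Gstm5 were called lower in the later library, Gstm6 was called higher (log2 ratio 0.94), and Gstm4 and Gstm7 were not called. Of 28 Cyp genes, 22 were called higher. Enterocyte markers summed to 5375 and 47517 CPM in the day 3 and day 5 absorptive-like cells, and their part in these differences was not tested.

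**Figure D4:**
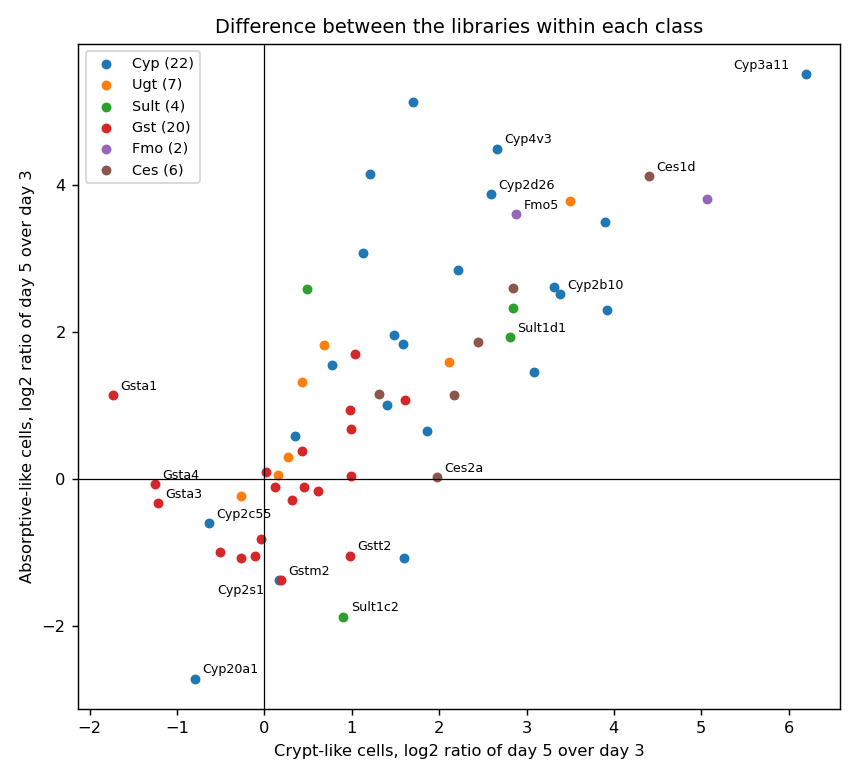
Log2 ratio of day 5 over day 3 within crypt-like cells (x axis) and within absorptive-like cells (y axis) for the 61 members measured in both; colours are families and the lines mark no difference. Most Cyp, Sult, Fmo and Ces genes lie at upper right, Gsta1 lies at upper left (-1.73 and 1.14), and Sult1c2 and Gstt2 lie at lower right (0.91 and -1.87, and 0.98 and -1.04).

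Absorptive-like cells of day 5 fell into 2 clusters of 223 and 178 cells. The summed level of the members was 12874 CPM in the larger and 18914 CPM in the smaller cluster. Of 69 members tested between them, 25 were called higher in the smaller cluster and 0 lower, against 9.46% and 1.89% of 8024 genes. The 25 include members, such as Cyp2c37, that passed the minimum only with UMIs of the smaller cluster, and nothing is read from their direction. The median log2 ratio was 0.47 over the members and 0.21 over those genes. Cyp2c29 stood at 79.7 and 364 CPM, a log2 ratio of 2.19, and Cyp3a11 at 497 and 1386 CPM, a log2 ratio of 1.48.

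To compare single cells at equal depth, each cell was thinned to 6700 UMIs, which left out 0 cells. The median number of members detected in a thinned cell was 9 (quartiles 7 and 11) in crypt-like, 8 (6 and 12) in regenerative-like and 18 (14 and 21) in absorptive-like cells of day 3. At day 5 it was 12 (10 and 15) in crypt-like and 30 (27 and 34) in absorptive-like cells, and 9 in secretory-like cells. The typical absorptive-like cell of day 5 thus held transcripts of more members than the typical cell of any other named class.

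Cyp3a11 had a UMI in 92.0% (exact binomial 95% interval 88.9 to 94.5) of thinned day 5 absorptive-like cells, in 6.01% of crypt-like cells and in 23.1% of secretory-like cells. The unthinned shares were 94.8% and 15.0% for absorptive-like and crypt-like cells, with median depths of 10671 and 19419 UMIs. Free RNA in the droplets was not measured apart from these shares, and no class is known to lack the gene. At day 3, Cyp3a11 had a UMI in 2.53% of thinned absorptive-like and 0.26% of crypt-like cells. Gsta1 had a UMI in 60.5% of crypt-like, 91.4% of regenerative-like and 88.6% of absorptive-like cells at day 3, and in 25.4% of crypt-like and 100% of absorptive-like cells at day 5. Ces2a had a UMI in 58.4% and 94.3% of thinned crypt-like cells at day 3 and day 5. The shares thus follow the summed levels for Gsta1 and for Ces2a in crypt-like cells. For Cyp3a11 they do not throughout. Its share was lower in day 3 absorptive-like than in day 5 crypt-like cells, while its summed level was higher.

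**Figure D5:**
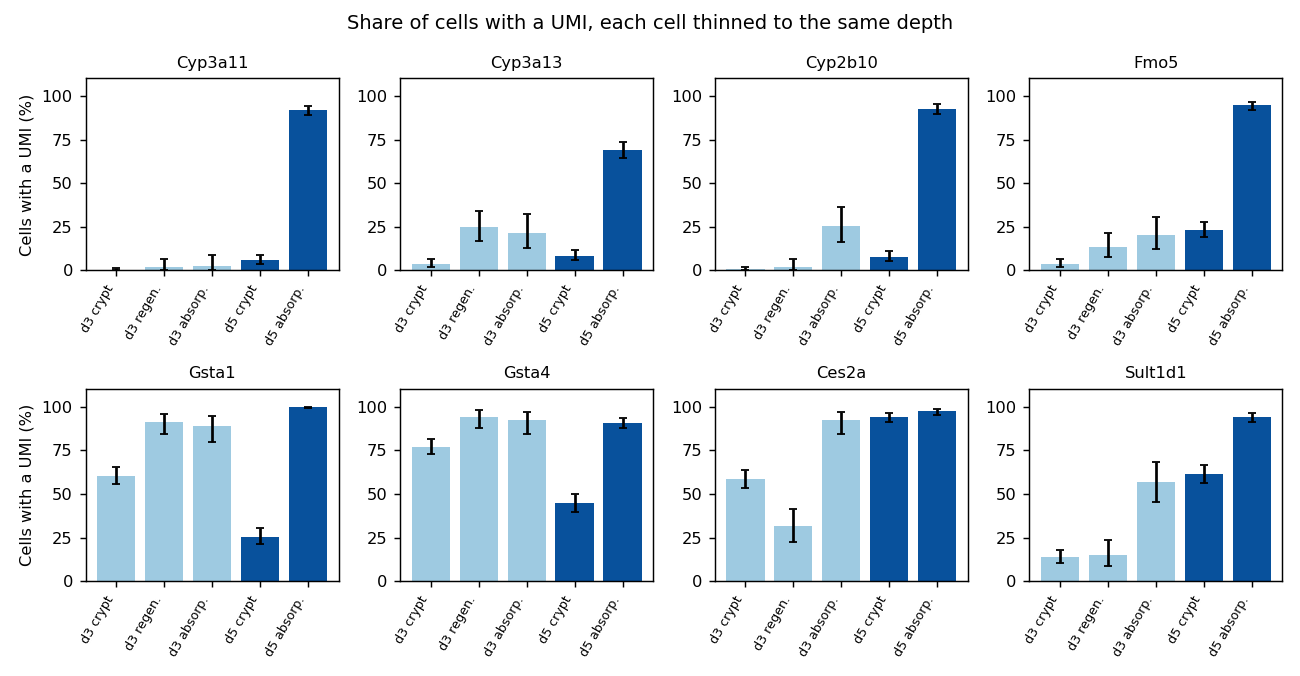
Share of cells with a UMI (y axis, percent, from 0) for 8 members in each class after thinning every cell to 6700 UMIs; light bars are day 3, dark bars day 5, and error bars exact binomial 95% intervals. Cyp3a11, Cyp2b10 and Fmo5 exceed 90% only in absorptive-like cells of day 5 among the classes drawn, while Gsta1 and Gsta4 exceed 90% in regenerative-like cells of day 3 as well.

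The receptors, electron donors and cofactor genes that serve these enzymes were compared over all cells in the same way, where 12.7% of all genes were called higher and 33.3% lower with a median log2 ratio of -0.34. Of 23 receptors and regulators of drug metabolism tested, 6 were called higher and 2 lower at day 5, with a median of 0.07. Nr1i3 (CAR), the xenobiotic receptor that induces Cyp2b10, stood at 6.08 and 52.8 CPM, a log2 ratio of 3.11, and Hnf4g, a nuclear receptor of enterocytes, at 24.5 and 63.3 CPM. Nr1i2 (PXR), the receptor that induces Cyp3a11, stood at 21.3 CPM (19.7–23.1) and 23.4 CPM (21.2–25.8), and the intervals overlap. Pparg, a lipid receptor, and Keap1, which restrains the antioxidant regulator NRF2, were called lower, at 20.0 and 7.44 CPM and at 52.4 and 26.3 CPM. Of the 9 electron donors that P450 enzymes need, 2 were called higher and 1 lower, with a median of 0.15. Por, the P450 reductase, stood at 84.1 CPM (80.8–87.5) and 82.3 CPM (78.1–86.7), and the intervals overlap, while the Cyp sum differed 6.68-fold. TMM scaling adds 0.31 to the log2 ratio of Por, of Nr1i2 and of the Cyp sum alike, so the overlaps hold for CPM only.

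Of 17 genes that supply the cofactors of conjugation, 4 were called higher and 7 lower, beside 12.7% and 33.3% of all genes, with a median log2 ratio of -0.11. Papss2, which makes the sulfate donor, stood at 5.84 and 171 CPM, a log2 ratio of 4.86. Ggt1, an enzyme that breaks down extracellular glutathione, had 3 and 416 UMIs, a log2 ratio of 7.62 with a counting interval from 6.29 to 10.13. Slc7a11, the cystine importer for glutathione synthesis, stood at 27.7 and 0.922 CPM, and Gsr, which regenerates glutathione, at 233 and 66.9 CPM, log2 ratios of -4.86 and -1.80. Ggt1 passed the minimum only with its day 5 UMIs and Slc7a11 only with its day 3 UMIs, and nothing is read from their direction.

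Of 20 drug transporters tested, 11 were called higher and 6 lower, beside the 12.7% and 33.3% of all genes, with a median log2 ratio of 0.88. Abcg2, an efflux pump of the enterocyte surface, stood at 20.1 and 48.5 CPM, and Abcc4, an efflux pump for organic anions, at 9.84 and 1.10 CPM. Abcc4 passed the minimum only with its day 3 UMIs, and nothing is read from its direction. Of 44 other drug and steroid enzymes tested, 27 were called higher and 5 lower, with a median of 1.05. Adh1, an alcohol dehydrogenase, stood at 19.3 and 938 CPM, a log2 ratio of 5.60, and Akr1b8, an aldo-keto reductase, at 57.4 and 9.91 CPM, a log2 ratio of -2.53. In the absorptive-like cells of day 5, 12 of 23 regulators and 6 of 9 electron donors were called higher than in crypt-like cells, with 0 and 2 lower, against 20.8% and 31.7% of all genes.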

How the data were processed

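The authors deposited UMI counts per gene and cell, made with Cell Ranger 1.3.0 on mm10 per the submitters' processing notes, from Chromium 3-prime libraries per the labels' protocols. No source used here states the annotation or how genes and cells were filtered. A second deposited table of log2 values equals the log2 of the count over the cell's size factor, plus 1 (largest difference 4.97e-14), and was used as an alternative scale. Column names gave the day and no cell barcode, so barcodes shared between libraries could not be counted. The members, gene lists and markers were chosen with earlier results of these data known.

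UMIs were summed over cells of a library or class and given per 1000000 UMIs, with log2 ratios after adding 0.5 UMI to each sum. Genes needed 20 UMIs over both sums, which is also the floor of each comparison's background. A member with few UMIs in 1 sum could thus enter a comparison only through its other sum. With 1 library per day no test was run. The call rule of 1.5-fold with Poisson intervals apart was tried on simulated counts with Poisson error only. Those counts hold no differences between cells or cultures, so they do not bear on such differences here. Where 1 sum was 0, the fold is a bound from a floor of 3 UMIs per sum. Symbols and positions came from GENCODE M21, which left 64 identifiers without a symbol.

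Each library was clustered with scanpy 1.11.5 (2000 variable genes, 30 components, 15 neighbours, Leiden resolution 1 with igraph 0.11.9, 10000 UMIs per cell). Leading genes were the 25 with the highest fold over the other cells and detected in 25% or more of the cluster. A name needed 3 markers of 1 type among them, with no rival type ahead in the top 10. Stem and proliferating markers did not bar each other, a choice made after the clusters were seen. No doublet caller was run, and doublets were not removed. Cells were thinned to 6700 UMIs for shares of cells.

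Named genes are the 2 most abundant members of each subfamily, the members with the steepest differences in each comparison among those with at least 10 CPM in the higher sum, and members at 0 UMIs on 1 side. Genes named outside that rule were chosen after their values were seen. The comparison of days within absorptive-like cells was also added after the data were seen. Alternatives were TMM (edgeR 4.0.16) and median-of-ratios factors, other UMI and fold limits, equal weight per cell, cells left out, Leiden resolutions of 0.6 and 1.6 and enzyme genes kept in the clustering. Likeness of the last 500 transcript bases was taken from blastn 2.17.0, with near-identical ends read as uncertain. Protein sequences were not used here. Analyses used numpy 2.4.6, pandas 2.3.3, scipy 1.17.1, biopython 1.88 and matplotlib 3.10.9.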

Additional observations from a re-analysis of the deposited data

Results flagged for a closer look

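The members below had log2 ratios of opposite sign in parallel comparisons, each called in its own comparison. The difference between the paired ratios was not tested, and the cells of each side come from 1 library. For absorptive-like over crypt-like cells, Gstm2 had -0.60 at day 5 and 0.96 at day 3, Gstt2 had -1.34 and 0.68, and Sult1c2, a sulfotransferase, had -0.98 and 1.79. For day 5 over day 3, Gsta1 had -1.73 in crypt-like and 1.14 in absorptive-like cells, Gstt2 had 0.98 and -1.04, and Sult1c2 had 0.91 and -1.87. The pairs of Gstt2 and of Sult1c2 rest on the same 4 sums in both comparisons. In CPM, Sult1c2 stood at 6.62 in crypt-like and 22.8 in absorptive-like cells of day 3, and at 12.4 and 6.20 in those of day 5.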

How the results depend on the processing

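The number of members called higher over all cells, 61 as reported, ranged from 49 to 67 over the alternatives run. The number called lower, 3, was 1 with TMM factors, with median-of-ratios factors and with a fold of 2, and 6 with day 5 cells held to the day 3 UMI minimum. Gsta1 reversed in the same comparison from 0.69 to -0.87 with that minimum and to -0.83 without the absorptive-like cells. For absorptive-like over crypt-like cells of day 3, the 2 lower members became 1 with TMM factors, a fold of 2 or a Leiden resolution of 0.6. For regenerative-like over crypt-like cells, a fold of 2 left 2 of 4 lower. A resolution of 1.6 gave 9 higher in place of 17 and 11 lower, and keeping the enzyme genes in the clustering gave 11 higher. In crypt-like cells between days, a fold of 2 left 3 of 5 lower. In absorptive-like cells between days, a resolution of 0.6 left 5 of 9 lower. The cause was not tested. The other 65 alternative counts stayed within 1.5 times the reported count. No paired analysis was possible because each day has 1 library. Counting intervals do not cover differences between cultures, and day 5 cells were shallower, so low day 5 members are the least precise per cell.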
